A study of Mus musculus with 20 samples.

Results

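Wnt proteins are secreted, lipid-modified ligands that bind Frizzled receptors with co-receptors of the Lrp, Ror and Ryk kinds. In the canonical branch they stabilise β-catenin, which enters the nucleus with TCF factors, keeps stem cells dividing at the crypt base and is the branch most often overactive in colon tumours. Other ligands, Wnt5a foremost, signal mainly without β-catenin. In the intestine some ligands come largely from epithelial cells, with Wnt3, Wnt6 and Wnt10a placed here in that group, and others from the stroma under the crypts, with Wnt2b, Wnt4, Wnt5a and Wnt5b placed here.

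The genes described are 10 Wnt ligand genes, Wnt2b, Wnt3, Wnt4, Wnt5a, Wnt5b, Wnt6, Wnt9a, Wnt10a, Wnt11 and Wnt16, named one by one and found by gene symbol among 32991 genes with an Ensembl transcript in the files. Colon RNA was sequenced from 20 mice, 5 in each of 4 groups, one library a mouse, in a study of Pien Tze Huang (PZH), a Chinese medicinal preparation, in colitis-associated cancer. The Control group was gavaged with double distilled water for 91 days and the PZH group with PZH at 250 mg/kg/d for the same time. The Model group received water by gavage, 1 injection of the carcinogen azoxymethane (AOM) at 12.5 mg/kg, and, beginning 7 days later, 4 cycles of 2% dextran sulfate sodium (DSS) in the drinking water, which injures the colon lining, each of 5 days followed by 2 weeks of plain water. The Model + PZH group received that same AOM/DSS course together with PZH at 250 mg/kg/d. The animals were male C57BL/6 mice, and the labels name no engineered allele in any group.

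The level of a gene in a mouse is the sum of the FPKM values (fragments per kilobase of transcript and per unit of library depth) of its Ensembl transcripts, so levels are per length and may be compared between genes. Low values fell mostly on multiples of 0.25 of the value of 1 fragment, from which the libraries held about 15300000 to 19400000 fragments. The extraction note of the labels names the abdominal aorta, whereas the tissue label says colon. The files held colon epithelial genes in every mouse, with a summed level of 12 epithelial markers between 3995 and 8977 FPKM and Vil1, a brush border protein, at 157 FPKM or more. Epcam, which colon epithelium is known to express, was listed at 0 in all 5 Control mice, so an exact 0 in these files can be a failed estimate and is given here only as listed at 0. Control mice 17 and 50 stood apart, since 12 squamous epithelium markers summed to 601 and 436 FPKM in them against 5.29 to 7.61 FPKM in the other Control mice. Tests of the Wnt ligand genes against the Control group are therefore also given without that pair of mice. The same markers summed to 4.49 to 6.40 FPKM in PZH, 30.3 to 59.5 FPKM in Model and 12.8 to 84.3 FPKM in Model + PZH mice, with mouse 35 the highest of these. Tests of other named genes use all 5 Control mice.

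Wnt6 and Wnt10a lie head to tail on chromosome 1, with Wnt6 at chr1:74771892-74785322 and Wnt10a at chr1:74791516-74804179 (GRCm38, plus strand), 6193 bases apart and with no protein-coding gene between them. Wnt3 lies at chr11:103774150-103817957, Wnt16 at chr6:22288227-22298522 and Wnt5a at chr14:28504750-28527448, all on the plus strand. Wnt5b lies on the minus strand at chr6:119432531-119544347 and has 3 annotated groups of transcript starts, of which the far one lies 94961 bases from the near one. Below are the 250 bases 5′ of the RefSeq start (GRCm38.p6) of the members whose levels or start sites the results turn on. TCF motifs, CTTTGAT or CTTTGAA on either strand, are in capitals, and the search covered the 300 bases from 250 before to 50 after each start.
Wnt6, chr1:74771642-74771891, plus strand: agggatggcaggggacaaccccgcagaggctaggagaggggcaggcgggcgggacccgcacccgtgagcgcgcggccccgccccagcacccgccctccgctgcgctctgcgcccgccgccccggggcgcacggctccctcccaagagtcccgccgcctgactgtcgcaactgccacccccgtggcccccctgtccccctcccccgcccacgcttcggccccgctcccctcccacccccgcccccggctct
Wnt3, chr11:103773925-103774174, plus strand: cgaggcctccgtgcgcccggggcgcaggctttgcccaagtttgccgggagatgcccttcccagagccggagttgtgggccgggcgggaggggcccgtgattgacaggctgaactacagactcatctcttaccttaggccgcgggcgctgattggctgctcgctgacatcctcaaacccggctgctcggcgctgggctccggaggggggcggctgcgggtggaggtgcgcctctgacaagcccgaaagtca
Wnt16, chr6:22287977-22288226, plus strand: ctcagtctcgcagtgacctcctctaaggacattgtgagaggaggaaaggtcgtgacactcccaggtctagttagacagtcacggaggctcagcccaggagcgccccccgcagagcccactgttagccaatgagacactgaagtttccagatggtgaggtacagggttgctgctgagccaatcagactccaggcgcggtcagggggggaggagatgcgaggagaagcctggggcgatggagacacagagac
Wnt5b far start, chr6:119544348-119544597, minus strand: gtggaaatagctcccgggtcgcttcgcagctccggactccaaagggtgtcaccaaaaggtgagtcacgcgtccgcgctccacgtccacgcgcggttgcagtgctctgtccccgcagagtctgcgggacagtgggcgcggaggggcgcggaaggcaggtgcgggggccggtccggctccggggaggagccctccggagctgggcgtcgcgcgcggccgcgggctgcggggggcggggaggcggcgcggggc
Wnt5b near start, chr6:119449387-119449636, minus strand: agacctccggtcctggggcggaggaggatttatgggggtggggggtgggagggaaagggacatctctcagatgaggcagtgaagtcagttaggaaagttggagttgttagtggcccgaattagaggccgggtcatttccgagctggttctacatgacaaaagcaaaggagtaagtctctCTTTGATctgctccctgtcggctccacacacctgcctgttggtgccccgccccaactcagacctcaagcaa

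RefSeq's table held 11 promoters of 8 members. It had no entry for Wnt5a and Wnt10a. A TCF motif was present in 2 of the 11, the near start of Wnt5b, where it began 71 bases before the start, and 1 of the 2 Wnt11 promoters, where it began 51 bases before it. Over all 32851 promoters of the same length in the table, 8.65% held such a motif. The windows of Wnt6, Wnt3 and Wnt16 did not hold these letters.

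The first comparison asked how the ligands differed in colon exposed to AOM/DSS. Compared with the Control group, Wnt6, Wnt10a, Wnt3, Wnt16 and Wnt5a were higher in the Model group, and for each of these 5 genes every Model mouse lay above every Control mouse. The rise was steepest in Wnt6 and Wnt10a. No member passed the test as lower.

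Wnt6, a ligand of epithelia, was measured at 0.64, 0.85, 0.65, 0.90 and 0.64 FPKM in the Control mice and at 14.6, 21.7, 13.9, 30.1 and 19.8 FPKM in the Model mice. The Control mean was 0.737 ± 0.127 FPKM (SD, n = 5) and the Model mean 27.1 times as high (SD 6.56 FPKM, n = 5). The Control level of Wnt6 rests on about 16.5 to 28.5 fragments a mouse. On the log2(FPKM + 1) scale used for all tests, which understates changes of low genes, the difference was 3.55 ± 0.20 (SE), with an adjusted p of 1.93e-06 in limma. Its neighbour Wnt10a, a canonical ligand known from skin and tooth development, was at 0.16, 0.089, 0.083 and 0.21 FPKM in Control mice 17, 37, 41 and 50, was listed at 0 in mouse 48, and was at 9.63, 8.84, 5.29, 19.8 and 9.98 FPKM in Model mice. The 5 Control libraries together held about 23.5 fragments of Wnt10a, against 2280 in the Model libraries, so its Control level rests on few fragments. The difference in Wnt10a was 3.29 ± 0.26 (SE; limma adjusted p = 1.67e-05). Model mouse 44 had the highest level of both genes.

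Wnt3, a canonical ligand that Paneth cells supply in the small intestine, was at 0.16, 0.036, 0.033 and 0.061 FPKM in Control mice 17, 37, 41 and 48, was listed at 0 in mouse 50, and was at 0.95, 0.74, 0.99, 1.32 and 1.37 FPKM in Model mice, a difference of 0.96 ± 0.10 on the log2 scale (SE; limma adjusted p = 0.000134). Although Wnt3 was well separated between the groups, its level in the Model group stayed below that of Wnt6 in each mouse. Wnt16, a ligand known from bone, was at 0.13, 0.23, 0.038 and 0.07 FPKM in Control mice 17, 41, 48 and 50 and was listed at 0 in mouse 37. In Model it was at 2.15, 2.09, 1.08, 2.32 and 1.00 FPKM, a log2 difference of 1.29 ± 0.16 (SE; limma adjusted p = 0.000349). Neither gene reached 0.5 FPKM in any Control mouse.

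Among the stromal ligands Wnt5a differed and the other 3 did not pass the test. Wnt5a, which signals mainly without β-catenin, was at 1.97, 1.74, 3.42, 4.51 and 3.30 FPKM in Control and at 7.43, 5.76, 8.51, 11.1 and 9.63 FPKM in Model mice. Its mean was 2.84 times as high, with a log2 difference of 1.27 ± 0.23 (SE; limma adjusted p = 0.00265). Wnt2b, a canonical ligand of the stroma, ranged from 1.73 to 6.28 FPKM in Control and from 2.38 to 7.05 FPKM in Model, a log2 difference of 0.12 with a 95% interval of -0.53 to 0.76. Without Control mice 17 and 50 its difference was -0.17, so no direction can be given for it. Wnt4, known for its part in the development of kidney and ovary, ranged from 1.60 to 2.44 FPKM in Control and from 0.49 to 2.06 FPKM in Model (difference -0.48 ± 0.19, limma adjusted p = 0.0927). Without Model mouse 30 alone, Wnt4 passed the test as lower, with a difference of -0.60 and a limma adjusted p of 0.0354. Wnt5b, the close relative of Wnt5a, ranged from 1.26 to 2.20 FPKM in Control and from 2.09 to 2.54 FPKM in Model (difference 0.24 ± 0.12, limma adjusted p = 0.192).

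Wnt11, a ligand of cell movement, ranged from 0.15 to 0.83 FPKM in Control and from 0.24 to 1.38 FPKM in Model (difference 0.11 ± 0.21, limma adjusted p = 0.751). Wnt9a, a ligand known from joint formation, was at 0.31 to 0.73 FPKM in Control and at 0.19 to 0.47 FPKM in Model, and fell under the minimum of 0.5 FPKM in at least 5 of the 10 mice that a gene needed to be tested. Wnt9a and Wnt11 thus stayed low in both groups.

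**Figure D1:**
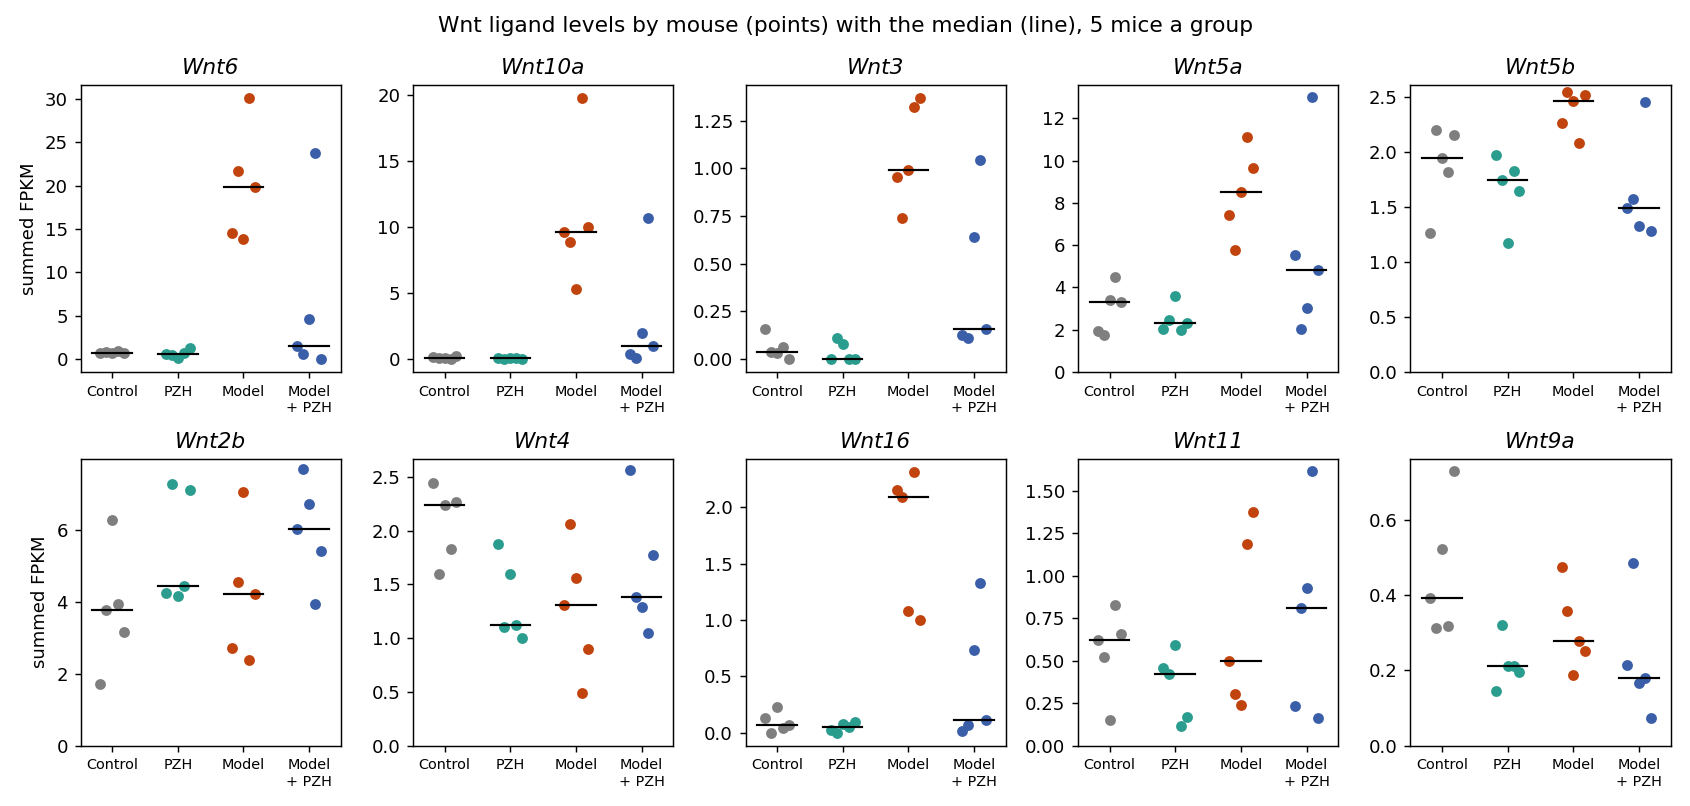
Summed FPKM of each Wnt ligand gene (vertical axes, one scale per gene) in 4 groups of 5 mice; each point is a mouse and each line the group's median. For Wnt6, Wnt10a, Wnt3, Wnt16 and Wnt5a the Model mice lie above all Control mice, and in the Model + PZH group 4 of 5 mice lie below all Model mice for each of those genes.

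Of the 10 members, 9 were tested, 5 were higher and 0 lower at an adjusted p under 0.05. Of all 15812 genes tested, 16.4% were higher and 7.23% lower. All 5 were also apart from Control without overlap, as were 18.4% of genes in either direction, 2058 higher and 859 lower. Wnt3, Wnt10a and Wnt16 passed the filter on low values only through the Model mice, so the count is no support in itself, and Wnt3, Wnt6, Wnt10a and Wnt16 are among the genes that the study picked out on these same mice. Without Control mice 17 and 50 the same 5 genes, Wnt3, Wnt5a, Wnt6, Wnt10a and Wnt16, were called, with adjusted p-values from 0.000117 for Wnt6 to 0.0170 for Wnt5a in limma. Scaling by the median of ratios turned the split over all genes from 2596 higher and 1143 lower to 1972 and 1586, while Wnt6 kept a difference of 3.46 and Wnt5a of 1.18.

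The make-up of the ligand pool differed between the groups. In Control mice the 10 genes summed to 9.51, 11.1, 15.6, 14.2 and 13.2 FPKM, of which the 4 stromal ligands made up 77.8% to 89.2% and the 3 epithelial ligands 4.91% to 10.1%. In Control mice 37, 41 and 48 alone these shares were 83.7% to 89.2% and 4.91% to 8.77%. In Model mice the sum was 42.0, 48.9, 41.2, 71.0 and 51.0 FPKM, of which the epithelial ligands made up 48.8% to 72.1% and the stromal ligands 22.6% to 47.5%. The stromal ligands themselves summed to 7.40 to 13.9 FPKM in Control and 13.7 to 19.6 FPKM in Model, ranges that overlapped. Ordered by mean level, Wnt2b led in Control and Wnt6 in Model. Neighbours in the Control order overlapped in range except between Wnt5b and Wnt6 and between Wnt9a and Wnt10a, and in Model every pair of neighbours overlapped.

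**Figure D2:**
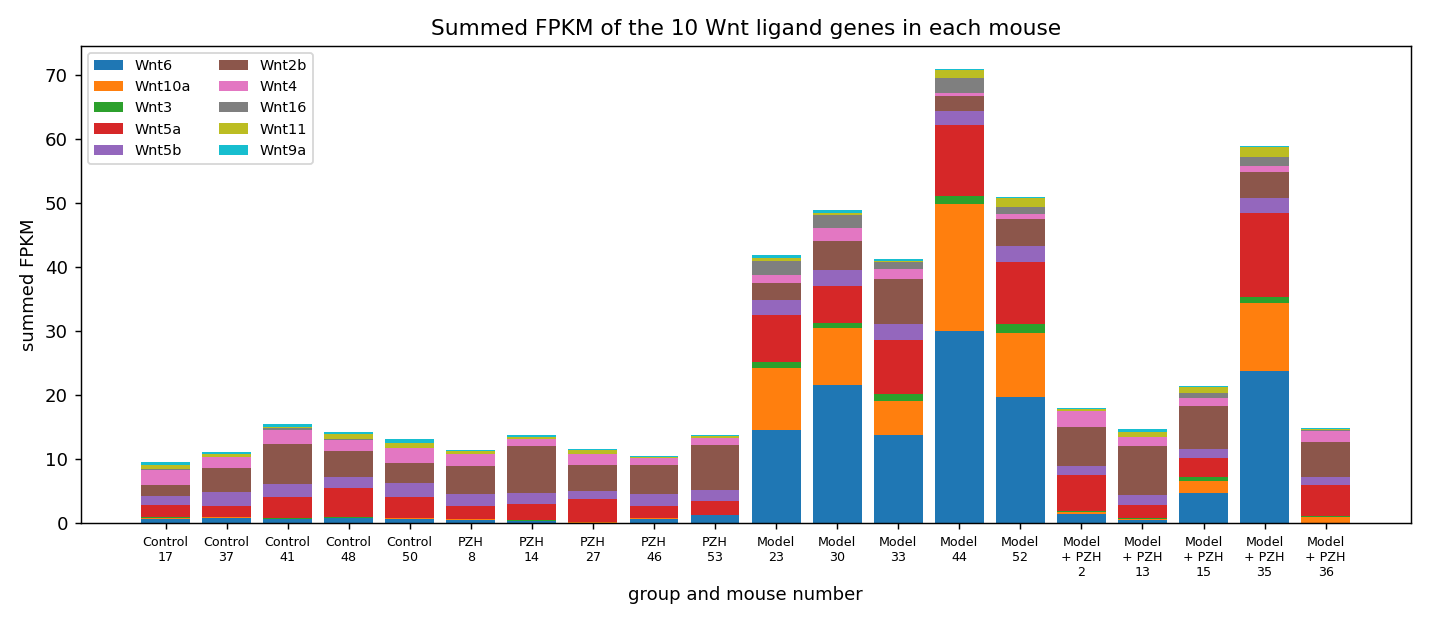
Summed FPKM of the 10 Wnt ligand genes (vertical axis) in each of 20 mice (horizontal axis, group and mouse number), with 1 colour for each gene. The Model bars reach 41.2 to 71.0 FPKM with Wnt6 and Wnt10a as the lowest layers, and Model + PZH mouse 35 reaches 59.0 FPKM while the other 4 of its group lie between 14.8 and 21.4 FPKM.

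Other cell types moved in the same comparison, and in whole tissue fewer cells of a type and less RNA per cell cannot be told apart. All 9 Paneth cell markers, genes of the defensin-secreting cells normally scarce in colon, were higher in Model, where they summed to 1659 to 6456 FPKM against 6.87 to 55.2 FPKM in Control. Of 11 leukocyte markers 6 were higher (sums of 414 to 906 against 183 to 393 FPKM), and of 9 smooth muscle markers 8 were lower (1029 to 1803 against 2312 to 5325 FPKM). Of 12 fibroblast markers 2 were higher and 1 lower, with sums of 587 to 708 FPKM in Model and 503 to 724 FPKM in Control. Over all genes tested, 16.4% were higher and 7.23% lower. No marker of these lists was at 0 in all mice, and their part in the ligand levels was not tested.

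The summed level of Wnt5b did not pass the test, but its transcripts differed in where they start. This comparison was chosen after the values were seen and is given as a description, with no test. The transcript from the near start, Wnt5b-201, was listed at 0 in all 5 Control and all 5 PZH mice. In Model mice it was at 0.61, 0.027, 0.54, 1.91 and 1.44 FPKM, from about 22.5, 1.0, 22.5, 70.0 and 55.2 fragments. In Model + PZH mice it was listed at 0 in 3 mice and was at 0.11 FPKM in mouse 15 and 0.14 FPKM in mouse 35. The near start thus carried 1.07% to 91.6% of Wnt5b in the Model group, with the share of each mouse set by how the authors' software divided fragments among overlapping transcripts. It is the start whose promoter, printed above, held the TCF motif, a match of letters that says nothing of binding.

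**Figure D3:**
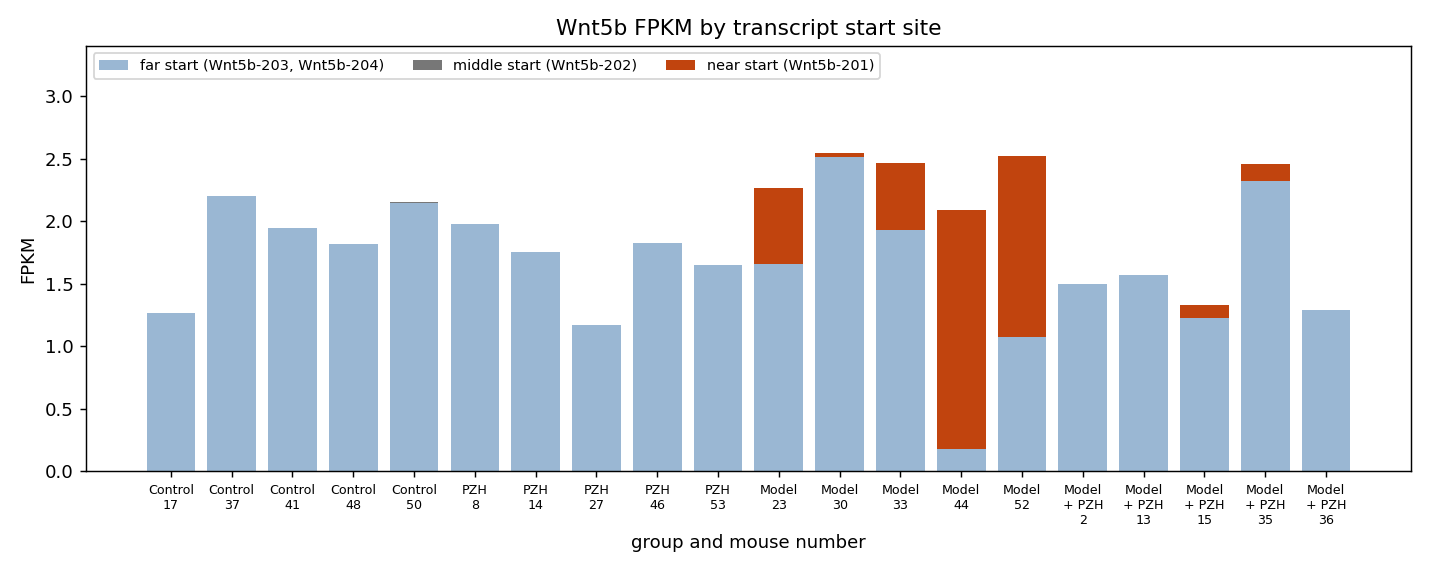
FPKM of Wnt5b (vertical axis) in each mouse (horizontal axis), divided by the start site of its transcripts. The near start appears in the 5 Model mice and in Model + PZH mice 15 and 35, and is listed at 0 in all Control and PZH mice.

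Beside the members themselves, the nearest protein-coding genes on either side came to 18, of which 11 could be tested in Model against Control, with 2 higher and 0 lower, a share close to the 16.4% of all genes called higher. Nsf, a membrane fusion ATPase 3824 bases beyond Wnt3, rose by 0.57 ± 0.10 on the log2 scale (SE; limma adjusted p = 0.00200). Fam3c, a secreted protein gene 7997 bases beyond Wnt16, rose by 1.00 ± 0.28 (SE; limma adjusted p = 0.0245). Prkag3, the gene before Wnt6, and Wnt9b, the gene before Wnt3, were under the filter.

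The second comparison asked whether PZH altered the ligands in AOM/DSS mice. In the Model + PZH group the 5 ligands that were higher in Model mice lay below every Model mouse in 4 of 5 mice and stayed high in mouse 35. The number of Model + PZH mice above every Control mouse was 4 for Wnt10a, 3 for Wnt6 and Wnt5a, and 2 for Wnt3 and Wnt16. No member passed the test. This comparison shares the 5 Model mice with the first, so the opposite signs of its values are not independent of it.

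Wnt6 was at 1.49, 0.59, 4.66 and 23.7 FPKM in Model + PZH mice 2, 13, 15 and 35 and was listed at 0 in mouse 36, against 13.9 FPKM in the lowest Model mouse. Wnt10a was at 0.34, 0.070, 1.94, 10.6 and 1.00 FPKM in mice 2, 13, 15, 35 and 36, and Wnt16 at 0.020, 0.069, 0.74, 1.33 and 0.11 FPKM. Wnt3 was at 0.13, 0.11, 0.64, 1.04 and 0.16 FPKM. In these 4 genes mouse 35 lay within the Model range, mouse 15 was second highest, and 4 of 5 mice lay below all Model mice. Wnt5a was at 5.55, 2.03, 3.01, 13.02 and 4.84 FPKM, with mouse 35 above every Model mouse. Wnt5b was at 1.49, 1.57, 1.33, 2.46 and 1.29 FPKM, again with 4 of 5 mice below all Model mice.

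The log2 difference from Model was -2.52 ± 0.73 for Wnt6, -2.12 ± 0.59 for Wnt10a, -0.96 ± 0.26 for Wnt16 and -0.59 ± 0.19 for Wnt3 (SE), each with a limma adjusted p of 0.356. It was -0.38 ± 0.13 for Wnt5b (limma adjusted p = 0.359) and -0.68 ± 0.36 for Wnt5a (limma adjusted p = 0.479). At an unadjusted p under 0.05, 5 of the 9 tested members were lower, Wnt3, Wnt5b, Wnt6, Wnt10a and Wnt16, and 0 were higher, where 8.21% of all 15888 genes tested were lower and 3.51% higher. At the adjusted threshold 0% of genes were lower and 0.00629%, which was 1 gene, higher. Wnt3, Wnt10a and Wnt16 were under 0.5 FPKM in 2 or 3 Model + PZH mice and owed their place in the test to the Model mice, so this count too is no support in itself. Without overlap between the groups 0.673% of genes were lower and 0.403% higher, and none of the members was among them. Wnt2b had a difference of 0.47 with a 95% interval of -0.07 to 1.02, Wnt4 of 0.22 with -0.25 to 0.70 and Wnt11 of 0.01 with -0.57 to 0.59.

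The result turned on mouse 35. Without it, 5 members were called lower in limma, Wnt6 (difference -3.22, adjusted p = 0.00768), Wnt10a (-2.67, 0.00768), Wnt16 (-1.15, 0.0204), Wnt3 (-0.73, 0.0274) and Wnt5b (-0.48, 0.0329), where 4.34% of all genes were called lower. With one spread estimated from all 20 mice, 3 members were called lower, Wnt6, Wnt10a and Wnt16, where 0.535% of genes were. Leaving out mouse 36, in which Wnt6 was listed at 0, gave a difference of -2.06 for Wnt6 (limma adjusted p = 0.573). Nothing in the labels sets mouse 35 apart, so the value with all 5 mice stands as the result. Its sums of several marker lists, given below, were the highest of its group.

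**Figure D4:**
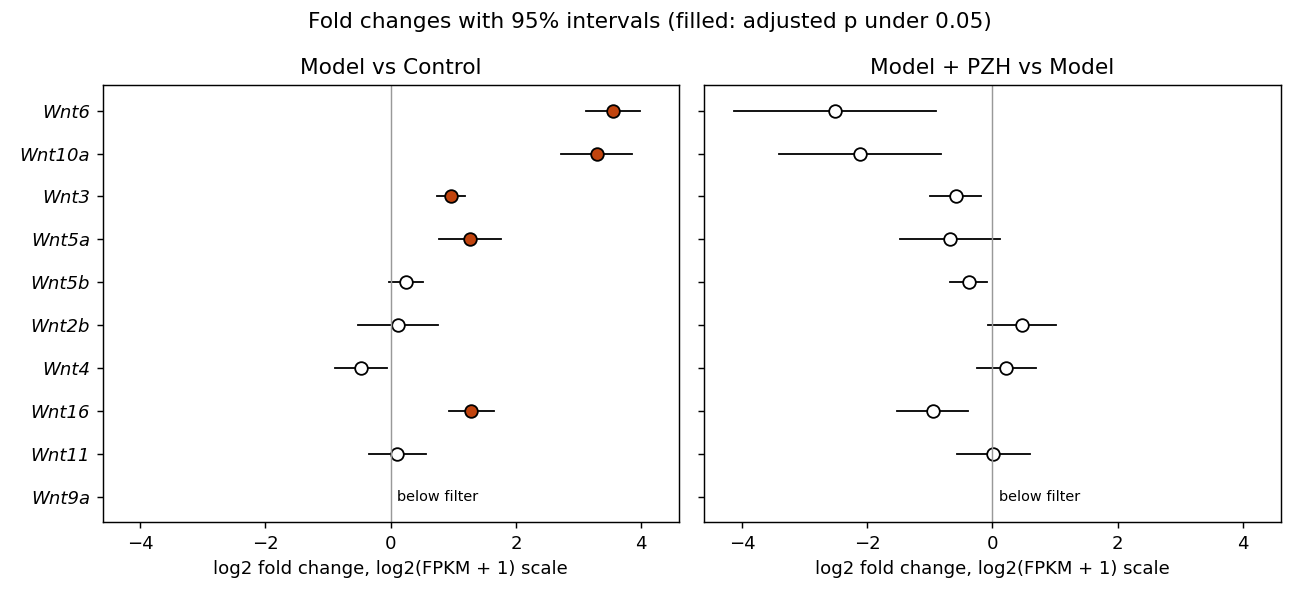
Log2 fold change of each tested Wnt ligand gene on the log2(FPKM + 1) scale (horizontal axes) with its 95% interval, for Model against Control (left) and Model + PZH against Model (right), 5 mice a group; filled points have a limma adjusted p under 0.05. The 5 filled points are all on the left, from 0.96 for Wnt3 to 3.55 for Wnt6, and the right-hand intervals of Wnt6 and Wnt10a are the widest.

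In the ligand pool too mouse 35 was highest and mouse 15 second. The 10 genes summed to 18.05, 14.8, 21.4, 59.0 and 14.8 FPKM in Model + PZH mice 2, 13, 15, 35 and 36, and the epithelial ligands made up 10.8%, 5.18%, 33.8%, 60.0% and 7.79% of it. The Paneth cell markers summed to 216, 124, 1989, 4962 and 172 FPKM in these mice, so mice 35 and 15 were also the highest for them. Mice 35 and 15 were likewise highest for the markers of leukocytes (773 and 462 FPKM), squamous epithelium (84.3 and 53.6 FPKM) and endothelium (53.1 and 40.6 FPKM). This order did not hold for the markers of epithelium, fibroblasts, smooth muscle or neurons and glia. Of the 9 Paneth cell markers 8 were lower than in Model at an unadjusted p under 0.05, where 8.21% of all genes were lower. None of the 9 was called, and the part of these cell types in the ligand levels was not tested.

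In mice without AOM/DSS, PZH changed no member by the test. Of 6 members tested in PZH against Control 0 were called, where 0.00645% of 15506 genes, a single gene, were lower and 0% higher. At an unadjusted p under 0.05, 1 member, Wnt4, was lower, where 4.50% of genes were lower and 4.34% higher. Wnt4 was at 1.88, 1.10, 1.60, 1.12 and 1.00 FPKM in PZH mice and at 2.44, 1.60, 2.23, 1.83 and 2.27 FPKM in Control mice, with a difference of -0.40 ± 0.14 (limma adjusted p = 0.520). Without Control mice 17 and 50 again 0 members were called, and the difference in Wnt4 was -0.31 (unadjusted p = 0.0850 in limma). Wnt6 differed by -0.15 with a 95% interval of -0.51 to 0.22, and Wnt5a by -0.17 with -0.63 to 0.29. Wnt3, Wnt10a and Wnt16 were at most 0.11 FPKM in every PZH mouse, in which the Paneth cell markers summed to 15.3 to 2112 FPKM.

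The difference between these effects of PZH was tested over all 20 mice. No member of the 9 tested passed, where 0.00590% of 16936 genes were called in each direction. At an unadjusted p under 0.05 Wnt6 (interaction -2.37 ± 0.79), Wnt10a (-2.02 ± 0.62), Wnt16 (-0.90 ± 0.28) and Wnt3 (-0.56 ± 0.20) were negative and Wnt4 (0.62 ± 0.26) positive, with limma adjusted p-values from 0.358 to 0.424, where 6.92% of genes were negative and 3.41% positive. Without mouse 35 the first 4 were called, where 2.57% of genes were called negative. Wnt3, Wnt10a and Wnt16 were under 0.5 FPKM in every Control and PZH mouse and entered this test only through AOM/DSS mice. Their interactions thus lay close to their differences in Model + PZH against Model (-0.59, -2.12 and -0.96), which rest on the same mice. These counts are therefore no support in themselves. Without Control mice 17 and 50 again 0 members were called, and the interaction was -2.32 for Wnt6, -2.09 for Wnt10a and 0.54 for Wnt4, which then had an unadjusted p of 0.0802 in limma.

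The remaining comparisons set the Model + PZH group against mice without AOM/DSS. Against Control, 0 of 6 tested members were called, where 1.55% of genes were higher and 0.871% lower. Against PZH, 0 of 5 tested members were called, where 1.74% were higher and 0.678% lower. Wnt6 differed from Control by 1.03 with a 95% interval of -0.51 to 2.57, an interval that holds both no difference and a large one. Without Control mice 17 and 50 the difference was 0.98 and again 0 members were called, while over all genes the calls went from 242 higher and 136 lower to 42 and 13. Wnt3, Wnt10a and Wnt16, which were higher in Model than in Control, were under the filter in both comparisons, so these counts say nothing of them. Wnt10a exceeded every Control mouse in 4 of 5 Model + PZH mice.

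The rest of the Wnt pathway was read from lists of receptors, inhibitors and target genes. In Model against Control 11 of 17 target genes tested were higher and 1 lower, 6 of 14 receptors were higher and 1 lower, and 6 of 9 tested secreted antagonists were higher and 1 lower. Of all genes tested 16.4% were higher and 7.23% lower. Notum stands in the lists of both targets and antagonists, and Sp5, Notum and Fzd10 passed the filter on low values only through the Model mice, so these counts are descriptions of the lists. None of the 6 genes of Wnt secretion, among them Porcn, which acylates Wnt proteins, and Wls, which carries them to the surface, was called.

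Among the targets of β-catenin, Apcdd1, an inhibitor of Wnt at the membrane, rose by 4.84 ± 0.35 on the log2 scale (SE; limma adjusted p = 8.50e-06). Sp5, a transcription factor, rose by 4.29 ± 0.17 (SE; limma adjusted p = 3.33e-07) and Nkd1, an intracellular inhibitor, by 4.00 ± 0.24 (SE; limma adjusted p = 3.42e-06). Secreted antagonists also rose. Wif1, which binds Wnt proteins, was at 0.39 to 0.82 FPKM in Control and 78.0 to 160 FPKM in Model mice. Notum, which removes the lipid from Wnt proteins, was listed at 0 in 4 Control mice, was at 0.04 FPKM in mouse 50 and was at 9.16 to 26.5 FPKM in Model mice. Dkk2, which binds Lrp co-receptors, was at 0.25 to 0.80 FPKM in Control and 6.41 to 13.2 FPKM in Model mice. Sfrp1, a decoy with a Frizzled-like domain, rose by 1.12 ± 0.22 (SE; limma adjusted p = 0.00445).

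Of the receptors, Fzd10 rose by 1.57 ± 0.26, Ptk7, a pseudokinase co-receptor, by 1.38 ± 0.14, Ror2, the receptor best known for Wnt5a, by 0.56 ± 0.17 and Fzd1 by 0.52 ± 0.17 (SE). Their limma adjusted p-values ran from 9.40e-05 for Ptk7 to 0.0440 for Fzd1. Of the R-spondin and Lgr list 4 of 7 genes could be tested. Lgr5, a marker of crypt stem cells, rose by 2.46 ± 0.22 and Lgr6, which passed the filter only through the Model mice, by 1.91 ± 0.26, whereas Lgr4 fell by 0.41 on the log2 scale (SE 0.13; limma adjusted p = 0.0408). Of 9 other Wnt genes 1 could be tested. Wnt8b, which passed the filter only through the Control mice, was at 0.90, 0.61, 0.61, 0.62 and 1.52 FPKM in Control. It was highest there in mice 50 and 17. In Model it was at 0.08, 0.39, 0.16, 0.09 and 0.25 FPKM, a fall of 0.62 on the log2 scale (SE 0.14; limma adjusted p = 0.00998).

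In Model + PZH against Model no gene of these lists was called. At an unadjusted p under 0.05, 8 of 17 targets, 4 of 9 antagonists and 3 of 15 receptors were lower and none was higher, where 8.21% of all genes were lower and 3.51% higher. Mouse 35 was again within or above the Model range for the named genes with the largest rises. Wif1 was at 6.48, 2.37, 36.3, 123 and 17.8 FPKM in mice 2, 13, 15, 35 and 36, Notum at 1.10, 0.46, 10.4, 32.5 and 1.47 FPKM, and Sp5 at 1.13, 0.25, 4.22, 21.2 and 2.71 FPKM. Against Control, Wif1 (3.48 ± 0.78, limma adjusted p = 0.0450) and Sfrp1 (0.97 ± 0.20, limma adjusted p = 0.0316) were called higher in Model + PZH, where 1.55% of genes were. The other pathway genes named here were not called there or were under the filter.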

How the data were processed

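Colon RNA of 20 mice was sequenced, 1 library a mouse. As the study's methods state, the authors assessed reads with FastQC, filtered them with NGSQC, used HISAT2 for alignment (build mm10) and StringTie for transcript abundance, and deposited FPKM values for 118434 transcripts. The labels' processing notes also name limma. From the deposited FPKM, 96032 transcripts were matched by ID to GENCODE M21 (GRCm38), 150 were not, and 22252 assembled transcripts without gene names were left out. Transcripts were summed to 32991 genes. limma 3.58.1 (R 4.3.3) with an intensity trend was run on log2(FPKM + 1) for genes with at least 0.5 FPKM in 5 of the 10 mice compared. For the interaction a gene needed that level in 5 of all 20 mice. All p-values were Benjamini-Hochberg adjusted over all genes tested, with calls under 0.05. The design gave 5 mice a group. Files hold no counts. Of low values, 42.2% to 47.2% fell within 0.02 of a whole fragment and 98.5% to 99.0% of a multiple of 0.25, so no count test was run and fragment numbers are estimates. No pair of the 40 within groups held identical values. Named genes were all members, up to 4 called genes with the largest change in each pathway list, and the members' nearest coding neighbours. The members and lists were chosen with earlier results of these data known. The script was tested on simulated data. Alternatives were a pseudocount of 0.1, no filter, median-of-ratios scaling, all 20 mice in 1 model, weights per mouse, each mouse left out and, added after marker levels were seen, leaving out Control mice 17 and 50.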

Additional observations from a re-analysis of the deposited data

Results flagged for a closer look

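By Dixon's test 3 values lay far from the other mice of their group, all of them in Model + PZH mouse 35. Wnt6 was at 23.7 FPKM there, against at most 4.66 FPKM in the other 4 mice, in 1 of which it was listed at 0. Wnt10a was at 10.6 FPKM, against 0.070 to 1.94 FPKM, and Wnt5b was at 2.46 FPKM, against 1.29 to 1.57 FPKM. Of 40 gene and group combinations tested, 3 were past the limit, and chance flags about 1 in 20.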

How the results depend on the processing

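The 5 members higher in Model than in Control were called under every alternative, with 5 to 6 members called when single mice were left out. In Model + PZH against Model 0 members were called, but 3 with all 20 mice in 1 model, and 0 to 5 when single mice were left out, with 5 only without Model + PZH mouse 35. In the interaction 0 were called, but 2 with weights per mouse, and 0 to 4 when single mice were left out, with 4 only without mouse 35. The mean sum of the 10 genes without single mice ran from 12.0 to 13.5 FPKM in Control, 11.8 to 12.7 in PZH, 45.8 to 53.2 in Model and 17.3 to 28.3 in Model + PZH. Signs changed only for differences that were never called. For Wnt2b, Model against Control gave -0.17 without Control mice 17 and 50 and -0.069 to 0.28 without single mice, and the interaction gave -0.0085 with a pseudocount of 0.1 and -0.17 to 0.19 without single mice. For Wnt11, Model + PZH against Model gave -0.027 with a pseudocount of 0.1, -0.17 with weights per mouse and -0.15 to 0.14 without single mice. Model + PZH against Control gave -0.017 for Wnt11 with weights per mouse and -0.041 to 0.25 without single mice, and Model against Control -0.022 to 0.21. Wnt5b in Model + PZH against PZH ran from -0.14 to 0.011. The cause was not tested. No paired analysis was possible because the groups share no mouse numbers. Members under 0.5 FPKM rest on few fragments, as do some above it, such as Wnt11 in Control mouse 48 (0.83 FPKM, about 10 fragments). With 5 mice a group, the limma p-values weigh each difference against the spread between these mice, estimated in part from all genes tested.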
